A study of Mus musculus with 106 samples.

Results

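The complement genes described here are C1qa, C1qb, C1qc, C3, C3ar1, C5ar1, Cfb and Cfp, 8 of the 21938 protein-coding genes read in the series. They were chosen by name, as the C1q chains and complement receptors with 3 further complement genes. The rule uses no measured value, but the choice was made with earlier results of these data known. The set is wider than its usual label of C1q and receptors, because C3, Cfb and Cfp encode a central component, a protease and a stabilizer of the pathway. All 8 are listed under their symbols in the GENCODE annotation, and each was marked at its promoter by acetylation in at least 13 of 35 libraries.

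Complement is a cascade of plasma and tissue proteins that tags microbes, dying cells and immune complexes for removal. C1q recognizes the target and opens the classical pathway, C3 is cleaved to coat the target, and factor B with properdin amplifies that step in the alternative pathway. Small fragments released on the way act on the receptors C3aR and C5aR1 of myeloid cells. Macrophages are a main source of C1q, whereas most other complement proteins in plasma come from the liver.

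The study compared bone marrow cells of C57BL/6J mice that were controls or had been made diabetic. The mice were 12 to 14 weeks old when assigned to these groups, before streptozotocin. Diabetes was induced with streptozotocin at 42 to 45 mg/kg per day for 5 days, and mice with non-fasted glucose over 13.9 mmol/L were used 6 weeks later. The cells labelled HSC are marrow depleted of cells carrying CD3, CD4, B220, Ter119 or Gr1, so they are a lineage-depleted mixture and not purified stem cells. BMDM are bone marrow-derived macrophages grown for 7 days in 5 mmol/L glucose with L929-conditioned medium. They were then given 100 ng/mL LPS with 10 ng/mL IFN-γ or medium alone. The study's general BMDM protocol gives 16 h for this step, and its ChIP-seq methods state no time. The acetylation of histone H3 at lysine 27 (H3K27ac, a mark of active promoters and enhancers) and trimethylation at lysine 4 (H3K4me3, a mark of promoters) were mapped by ChIP-seq in all 3 cell states. There were 6 libraries for each mark, state and disease group, except that unstimulated diabetic BMDM had 5 (number 3 is absent), which makes 35 lists of peaks for each mark and 70 in all. The study's methods count individual animals as n. The labels do not say whether same-numbered libraries of different states come from 1 animal, and the p values given here measure the spread between libraries.

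The lists held 13730 to 277213 peaks. They carry no read totals, so depth is unknown and no counting interval can be given. Over both disease groups, H3K27ac lists were of similar length in each state (medians 125766 for HSC, 111095 for unstimulated and 111612 for stimulated BMDM). H3K4me3 lists of HSC were shorter (median 59726.5) than those of unstimulated BMDM (131406) and LPS+IFN-γ BMDM (137890). Because signal values rate peaks only within a list, each gene was given a percentile in each library. The strongest peak that touched its promoter (1 kb to either side of any annotated start) was ranked by its −log10 p among all 21938 genes, so that 100 is the strongest promoter of the library and 0 is a promoter with no peak. The same was done for a window of the gene body with 10 kb on either side.

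The labels of the stimulated and unstimulated libraries were checked at H3K27ac promoters. Acetylation at 164 promoters was higher and at 276 was lower in every stimulated than in every unstimulated diabetic library, and the mean of the former minus that of the latter was read in the control libraries. It lay between −26.9 and −16.7 in the unstimulated and between 7.32 and 28.1 in the stimulated diabetic libraries, which chose the promoters. In control mice the libraries labelled LPS+IFN-γ gave 3.03 to 16.6 except number 5 at −11.2, and those labelled unstimulated gave −19.8 to −2.39 except number 5 at 7.80 and number 6 at 3.14. These 3 H3K27ac libraries go against their labels and are called here by what they are labelled, and H3K27ac results on stimulation are given with and without them. The same reading of H3K4me3, with 45 and 49 promoters, overlapped between the control groups (−16.6 to 5.58 in stimulated and −16.7 to −5.59 in unstimulated libraries).

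Cell type markers were read at H3K27ac promoters as a sum of percentiles. Macrophage markers (10 genes) summed to 131 to 329 in HSC, to 313 to 569 in unstimulated and to 330 to 561 in stimulated BMDM, with Msr1 and Marco at 0 in every HSC and unstimulated library. Stem and progenitor markers (10 genes) summed to 507 to 583 in HSC and 264 to 487 in unstimulated BMDM. Erythroid markers (7 genes) summed to 274 to 476 in HSC and 105.3 to 184 in unstimulated BMDM, with Alas2, the first enzyme of heme synthesis in red cells, at 0 in every unstimulated BMDM library. Markers of marrow-resident macrophages (8 genes), which express C1q in tissue, summed to 51.0 to 200.02 in HSC and 125 to 343 in unstimulated BMDM, with Vcam1 and Timd4 at 0 in every library of both. In such bulk chromatin, fewer cells that carry a mark and less of it per cell cannot be told apart, and the part of these marker differences in the results below was not tested.

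DNA next to a start is shown for 5 of the 6 genes whose H3K27ac promoters differed between HSC and BMDM. As a contrast it is shown for C5ar1, which was acetylated at its promoter in every HSC library. The upstream stretches are only a part of the promoters that were read, which reach 1 kb to either side of any start. The peaks that gave the percentiles can have their summits outside these stretches. All 8 genes lie on the minus strand of GRCm38. C1qb (chr4:136880129-136886187), C1qc (chr4:136889804-136893065) and C1qa (chr4:136895917-136898803) stand in a row on chromosome 4. C3ar1 is at chr6:122847138-122856161, C5ar1 at chr7:16246743-16259540, Cfb at chr17:34856374-34862518, C3 at chr17:57203970-57228136 and Cfp at chrX:20925454-20931555. RefSeq promoters (GRCm38.p6, 250 bases before to 50 after a start) were matched for 6 of the 8 genes, all but C1qa and Cfb. The stretches below run 5′ to 3′ on the coding strand and end at the base before the RefSeq or GENCODE start, whichever lies further upstream, except the C1qc summit stretch. That one holds the 201 bases around the usual H3K27ac summit of the C1q genes in BMDM, inside the transcribed part of C1qc. Capitals mark motif matches in the upstream stretches (none in that of Cfp) and the 144 bases of coding exon in the summit stretch.
C1qb upstream, chr4:136886201-136886450: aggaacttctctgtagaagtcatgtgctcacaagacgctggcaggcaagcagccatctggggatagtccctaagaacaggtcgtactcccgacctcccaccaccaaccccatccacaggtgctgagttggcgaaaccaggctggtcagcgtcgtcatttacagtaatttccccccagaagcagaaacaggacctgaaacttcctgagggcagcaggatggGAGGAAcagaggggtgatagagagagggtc
C1qc upstream, chr4:136893066-136893164: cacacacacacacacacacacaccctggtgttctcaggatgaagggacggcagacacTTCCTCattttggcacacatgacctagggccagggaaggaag
C1qc summit stretch, chr4:136892322-136892522: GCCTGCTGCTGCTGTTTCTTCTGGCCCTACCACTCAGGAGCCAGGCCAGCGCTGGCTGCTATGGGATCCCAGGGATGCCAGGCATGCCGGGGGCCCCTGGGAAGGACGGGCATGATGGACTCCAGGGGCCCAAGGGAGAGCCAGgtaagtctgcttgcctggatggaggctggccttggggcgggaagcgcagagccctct
C3 upstream, chr17:57228137-57228386: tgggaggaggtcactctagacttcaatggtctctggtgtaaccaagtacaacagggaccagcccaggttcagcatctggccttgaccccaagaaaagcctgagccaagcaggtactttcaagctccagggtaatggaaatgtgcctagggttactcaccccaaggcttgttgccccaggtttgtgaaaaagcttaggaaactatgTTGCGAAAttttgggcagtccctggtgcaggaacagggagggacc
C3ar1 upstream, chr6:122856162-122856407: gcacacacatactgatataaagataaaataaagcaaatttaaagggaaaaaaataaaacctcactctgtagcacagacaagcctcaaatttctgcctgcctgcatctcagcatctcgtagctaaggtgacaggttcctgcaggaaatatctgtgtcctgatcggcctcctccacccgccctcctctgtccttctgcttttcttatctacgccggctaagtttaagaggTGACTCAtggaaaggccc
Cfp upstream, chrX:20931556-20931805: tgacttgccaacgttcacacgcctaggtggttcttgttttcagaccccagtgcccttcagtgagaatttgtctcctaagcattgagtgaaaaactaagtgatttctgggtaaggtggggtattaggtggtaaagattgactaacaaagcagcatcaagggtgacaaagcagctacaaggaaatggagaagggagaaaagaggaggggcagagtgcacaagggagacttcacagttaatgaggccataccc
C5ar1 upstream, chr7:16259541-16259588: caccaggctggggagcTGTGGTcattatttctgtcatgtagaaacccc
The capitals are GAGGAA in C1qb and its complement in C1qc (a core of ETS factors such as PU.1), TTGCNNAA in C3 (C/EBP), TGANTCA in C3ar1 (AP-1) and TGTGGT in C5ar1 (RUNX), where N is any base.

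Each motif was searched on both strands, counted from the RefSeq start. GAGGAA stood at −30 in C1qb, at −193 in C1qc and at 7 and 23 after the start in Cfp, and it is held by 28.3% of 32851 RefSeq promoters of the same length. TGTGGT stood at −132 in C1qc and at −234 in C5ar1 (16.8% of promoters), TTGCNNAA at −45 in C3 (10.8%), TGANTCA at −22 in C3ar1 (7.81%) and GAAANNGAA, an IRF motif, at −66 in C5ar1 (8.56%). GGANTTNCC of NF-κB (3.95%) and TCACNTGA of MiT/TFE factors (4.18%) had no match in the 6 promoters. None of the 7 motifs was in the C1qc summit stretch. A match is a description of letters and not a bound site.

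The first comparison asked whether complement genes carried acetylation in marrow progenitors or only after macrophage differentiation. At H3K27ac promoters 6 of the 8 genes were lower in HSC than in unstimulated BMDM, which were C1qa, C1qb, C1qc, C3, C3ar1 and Cfp, and the largest differences were those of the 3 C1q chains. C5ar1 and Cfb did not pass the test, and 0 of the 8 passed it in the opposite direction. Across all genes 21.7% passed (4755, of which 2480 were higher and 2275 lower in HSC). The test was a two-sided exact permutation of libraries within disease groups (426888 arrangements, smallest p 2.34e-06) with Benjamini-Hochberg adjustment over the 21938 genes and a threshold of 0.05 on the adjusted p.

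**Figure D1:**
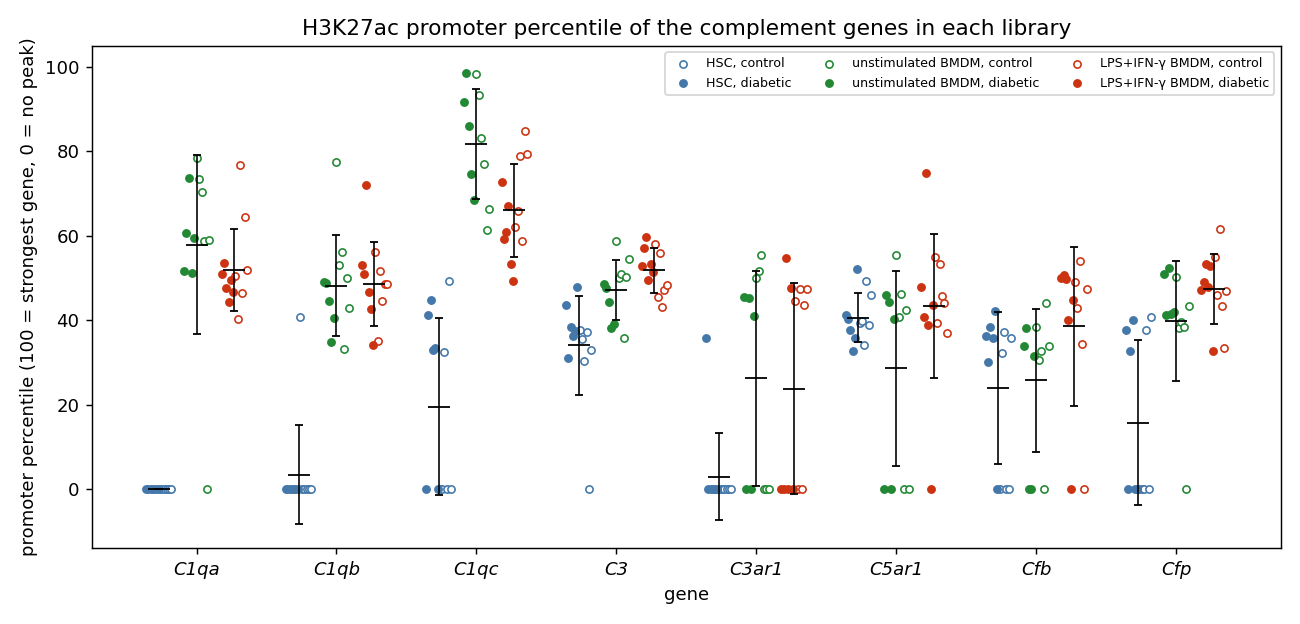
H3K27ac promoter percentile (vertical axis, 0 for no peak) of each gene in every library, with control mice as open and diabetic mice as filled points, and the mean with SD as black bars. C1qa sat at 0 in all 12 HSC libraries, while C1qc sat between 61.4 and 98.5 in the 11 unstimulated BMDM libraries.

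C1qc, the C chain of C1q, had the highest mean percentile of the 8 in unstimulated macrophages. In unstimulated control BMDM its percentiles were 98.5, 93.4, 83.1, 77.1, 61.4 and 66.4 in libraries 1 to 6. In unstimulated diabetic BMDM they were 91.7, 98.5, 86.1, 74.7 and 68.4. In HSC 6 of 12 libraries had no peak, and the other 6 had 32.4 and 49.3 in control mice and 41.2, 44.8, 32.9 and 33.4 in diabetic mice. Every unstimulated BMDM library therefore lay above every HSC library, with means of 81.8 ± 13.1 (SD, n = 11) and 19.5 ± 20.9 (n = 12). The share of all genes with such a separation was not counted, so it cannot be said whether this is unusual. The difference was −62.6 percentile points (SE 7.26, exact permutation p = 2.34e-06, the smallest possible, adjusted p = 0.000105).

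C1qa, the A chain, had no promoter peak in any of 12 HSC libraries. In unstimulated BMDM 10 of 11 libraries were marked, with values of 78.5, 73.5, 70.5, 58.8, 0 and 59.0 in control mice and 51.7, 60.6, 73.7, 51.2 and 59.6 in diabetic mice. The library at 0 is control number 5, which is among those that go against their labels. The difference of HSC from unstimulated BMDM was −58.0 (SE 6.21, adjusted exact permutation p = 0.000376), and without the 3 such libraries it was −64.5 (adjusted p = 0.000345).

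C1qb, the B chain, was marked in 11 of 11 unstimulated BMDM libraries, from 33.1 through a median of 48.9 to 77.5. Of the HSC libraries 11 of 12 had no peak, and control number 1 reached 40.8, which is inside the BMDM range. The difference was −44.5 (SE 4.75, adjusted exact permutation p = 0.000163). It shrank to −20.7 (adjusted p = 0.223) when only the 20000 strongest peaks of each list were used.

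Peaks across the 3 C1q genes were read in bins of 0.5 kb from 10 kb before the C1qa start, and the summits of separate libraries were lined up within 150 bp. The places named below were chosen as those with the most H3K27ac summits in BMDM, and HSC libraries were counted there afterwards. High BMDM counts are thus given by the choice, places recurrent only in HSC could not appear, and the counts are a description. A summit 6.38 kb after the C1qa start, inside C1qc, was present in all 11 unstimulated and all 12 LPS+IFN-γ BMDM libraries and in 5 of 12 HSC libraries. It lies 643 bp after the C1qc start at chr4:136892422, which is the middle of the sequence shown above. It was the strongest H3K27ac summit of the locus in 17 of 23 BMDM libraries, at 6336 to 6478 bp after the C1qa start. Further acetylated summits recurred in the C1qa body at 1.10 kb (0 HSC, 9 unstimulated and 9 LPS+IFN-γ libraries), at the C1qc 3′ exon at 8.29 kb (3, 9 and 6), between the genes at 10.6 kb (2, 9 and 9) and in the C1qb 3′ exon at 18.1 kb (1, 9 and 10). A summit in the C1qb promoter, at 12.1 kb, was in 0 HSC, 7 unstimulated and 5 LPS+IFN-γ libraries. Acetylated summits thus recurred in BMDM in the bodies of all 3 genes, as separate peaks and not as 1 stretch.

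**Figure D2:**
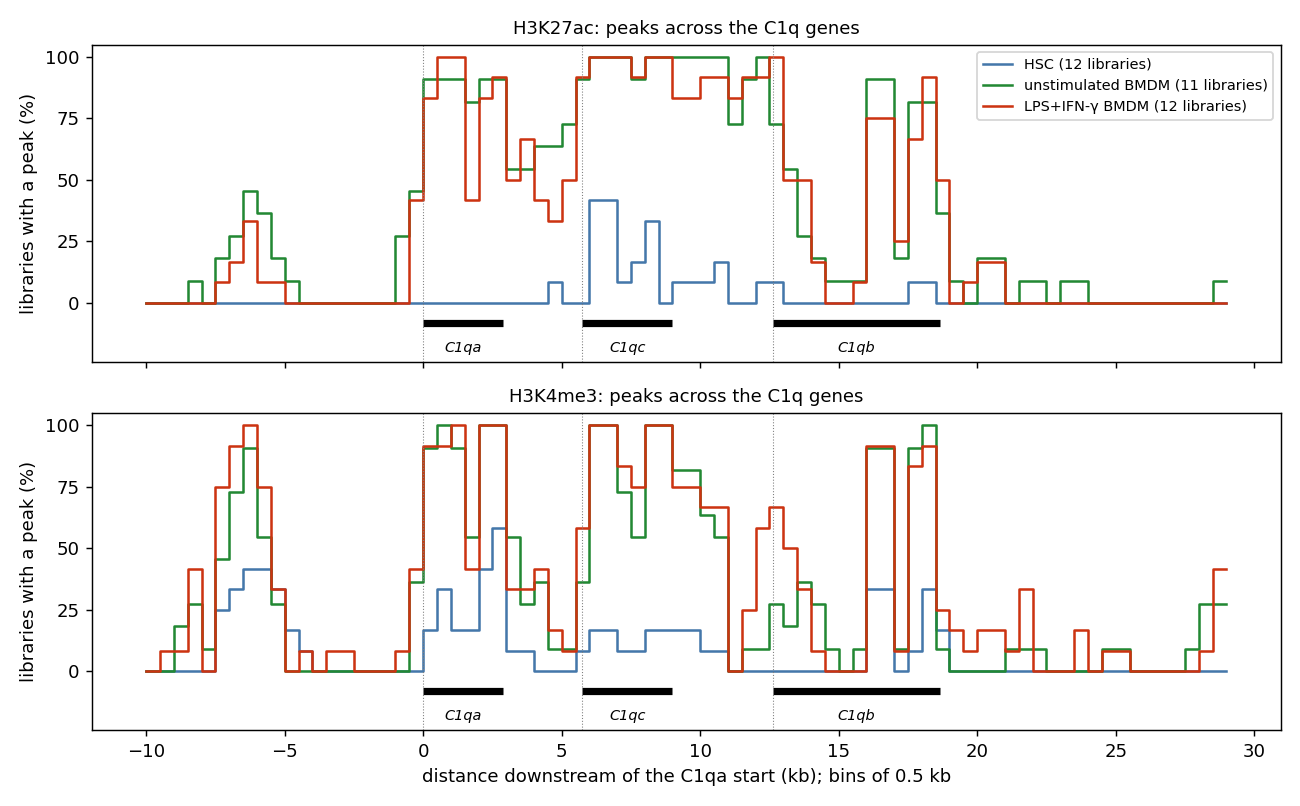
Share of libraries (%) with a peak in each 0.5-kb bin along the C1q genes, by kb downstream of the C1qa start, in each of the 3 cell states, with black bars for the genes and dotted lines at their starts. At 6 to 7 kb, inside C1qc, all 23 BMDM libraries and 5 of 12 HSC libraries had an H3K27ac peak.

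Within the C1qc gene window, H3K27ac peaks covered 503 ± 313 bp in HSC (SD, n = 12), 10234 ± 3633 bp in BMDM kept in medium (n = 11) and 9517 ± 3296 bp in LPS+IFN-γ BMDM (n = 12). The strongest peak of the C1q genes ranked 321 to 9180 in its list in unstimulated BMDM (median 3519) and 3083 to 14125 in LPS+IFN-γ BMDM (median 7975.5), against 17939 to 123561 in the 10 HSC libraries with a peak (median 61243.5). The windows of the 3 genes overlap and share that peak in the H3K27ac lists, so they give 1 value. It was 24.1 ± 12.8 (n = 12) in HSC and 77.5 ± 15.2 (n = 11) in unstimulated BMDM, a difference of −53.5 (SE 5.89, adjusted exact permutation p = 9.81e-05), with no overlap between the groups (highest HSC 40.8, lowest BMDM 53.3). Of all genes 26.6% passed in their windows, and the share without overlap was not counted.

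**Figure D3:**
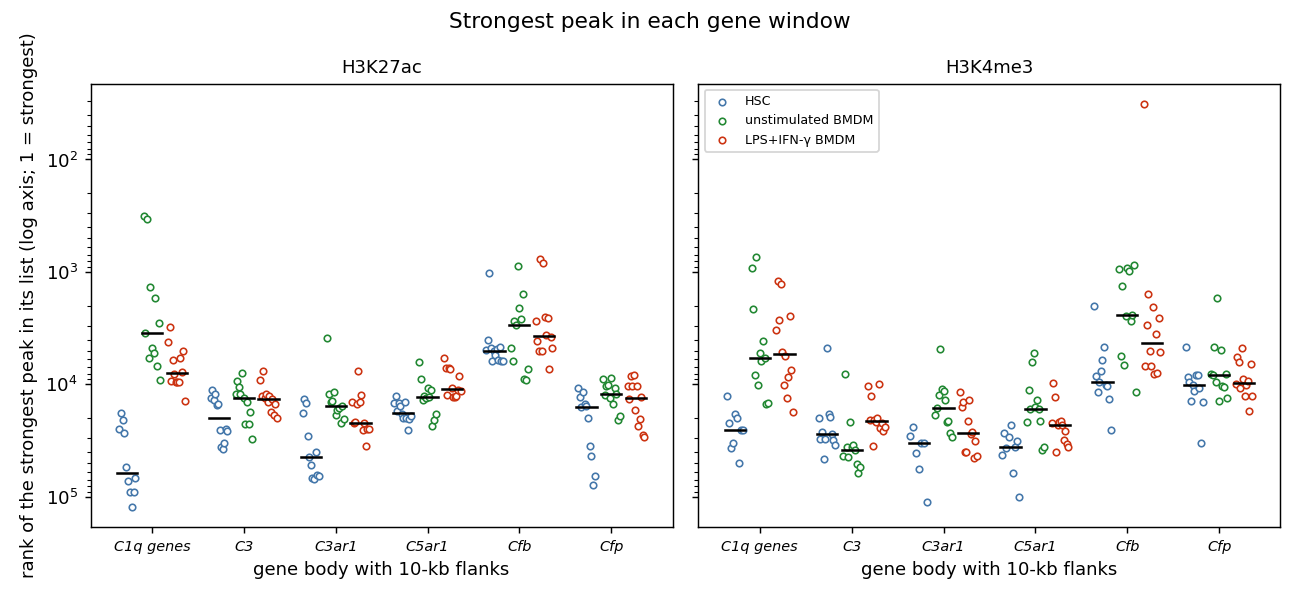
Rank of the strongest peak of each gene window within its list (log axis, 1 at the top end), for each library with a peak there, with medians as black bars. The C1q genes have the widest gap in H3K27ac, from a median rank of 61243.5 in HSC to 3519 in unstimulated BMDM.

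C3, the component that all pathways cleave, was marked in 11 of 12 HSC libraries as well as in every BMDM library, in a promoter set of 6136 bp (4 starts) against 2001 to 2190 bp for the C1q chains. Percentiles ran from 0 through a median of 36.7 to 47.9 in HSC and from 35.7 through 48.6 to 58.9 in unstimulated BMDM, so the groups overlapped. The difference was −13.1 (SE 4.14, adjusted exact permutation p = 0.00958). It was −21.1 in control mice (adjusted p = 0.0757) and −4.40 in diabetic mice (adjusted p = 0.527). Cfp, which encodes properdin, had no peak in 7 of 12 HSC libraries and values of 32.7 to 40.7 in the other 5. In unstimulated BMDM 10 of 11 libraries were marked, at 38.1 to 52.4, and control number 5 was at 0. The difference was −24.4 (SE 7.07, adjusted p = 0.0204). Cfb, the protease factor B, was marked in 8 of 12 HSC libraries (highest 42.2) and 8 of 11 unstimulated BMDM libraries (highest 44.2), and its difference of −1.86 (SE 7.40, exact permutation p = 0.851) was smaller than its error.

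Of the receptors, C3ar1, the C3a receptor, had no promoter peak in 11 of 12 HSC libraries (35.8 in diabetic number 1), and 6 of 11 unstimulated BMDM libraries were marked, at 41.1 to 55.5. The difference of −23.5 (SE 8.05, adjusted exact permutation p = 0.0455) was close to the threshold. The call was lost on leaving out each of 14 libraries, with adjusted p up to 0.105, and when a peak had to share 200 bp with the promoter (−6.69, adjusted p = 0.549). C5ar1, the C5a receptor of neutrophils and macrophages, was marked in all 12 HSC libraries, at 32.8 through 39.5 to 52.2, but in only 7 of 11 unstimulated BMDM libraries, at 40.3 to 55.5. Its difference of 12.1 (SE 6.95, exact permutation p = 0.0973, adjusted p = 0.257) did not pass.

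**Figure D4:**
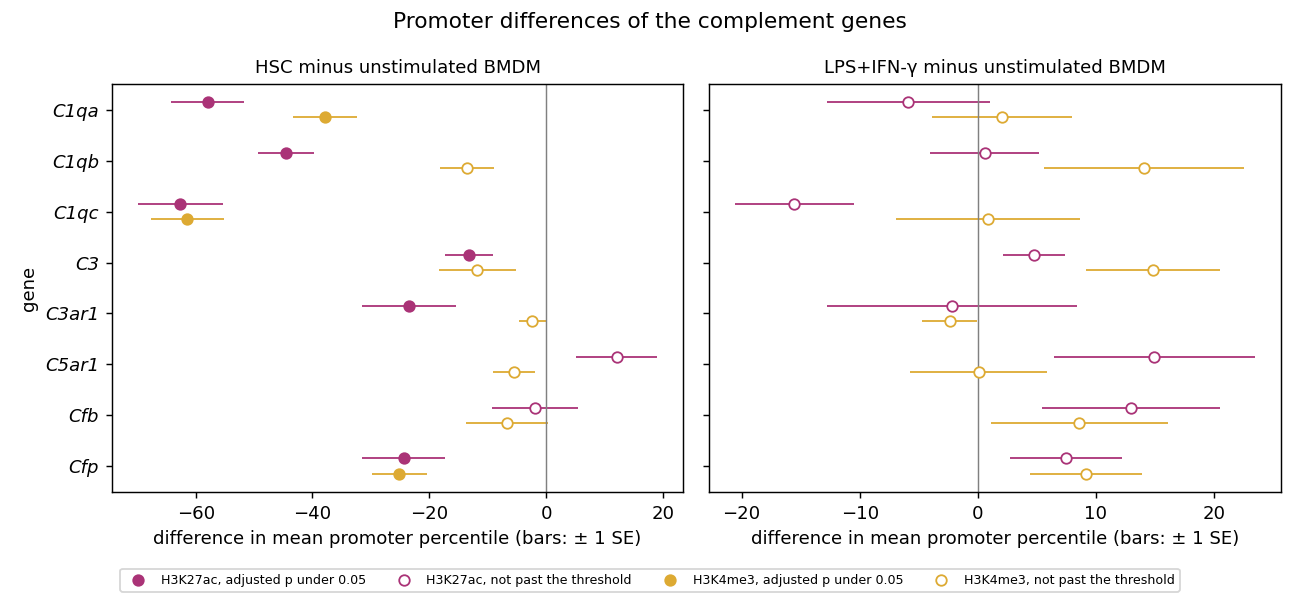
Difference in mean promoter percentile with SE for each gene, HSC minus unstimulated BMDM on the left and LPS+IFN-γ minus unstimulated BMDM on the right, with filled points for an adjusted p under 0.05. On the left 6 genes passed for H3K27ac and 3 for H3K4me3, and on the right 0 passed.

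Ordered by mean H3K27ac promoter level in unstimulated BMDM, the genes were C1qc (81.8), C1qa (57.9), C1qb (48.2), C3 (47.1), Cfp (39.8), C5ar1 (28.7), C3ar1 (26.3) and Cfb (25.8). Only C1qc and C1qa stood farther apart than the larger SD of the pair (21.3), and the other neighbors in this order did not. In HSC the order was C5ar1 (40.6), C3 (34.1), Cfb (24.0), C1qc (19.5), Cfp (15.7), C1qb (3.40), C3ar1 (2.98) and C1qa (0). Promoters with more annotated starts cover more bases (5515 bp for Cfb, 4002 bp for Cfp and 2001 bp for C1qa, C1qb and C3ar1), so these orders are of percentiles per gene.

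Outside the C1q locus, the strongest peak of a window often belonged to a neighbor. For Cfb it was the shared promoter of Nelfe and Skiv2l, 11.9 kb after the Cfb start, in all 35 H3K27ac libraries. For Cfp it was the Syn1 promoter in 11 of 11 HSC libraries with a peak, 9 of 11 unstimulated and 7 of 12 LPS+IFN-γ libraries, and Cfp itself held it at a second start 3.17 kb inside the gene in 4 of 12 LPS+IFN-γ libraries. C3ar1 windows were led by a summit inside Foxj2, 18.1 kb away, in 6 of 11 unstimulated libraries. In C3 windows the leading summit was the Tnfsf14 promoter, 34.2 kb away, in 7 of 12 HSC libraries and Gpr108 in 6 of 11 unstimulated BMDM libraries. C5ar1 was led by its own intron, 2.3 kb after the start, in 9 of 11 unstimulated and 11 of 12 LPS+IFN-γ libraries but 3 of 12 HSC libraries, where C5ar2, a second C5a receptor, led in 5 of 12. By window, 6 genes passed for H3K27ac in HSC against unstimulated BMDM, all lower in HSC. The C1q chains among them share 1 window value and are not separate results. The others were C3ar1 (−16.8, adjusted exact permutation p = 0.00286), Cfp (−13.9, adjusted p = 0.00366) and C5ar1 (−6.96, adjusted p = 0.0477). The C5ar1 call was lost on leaving out each of 17 single libraries (adjusted p up to 0.0879) and without the 3 libraries that go against their labels (−6.13, adjusted p = 0.103). Without peaks over the promoters of other genes, C3 passed and C5ar1 did not.

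Of the wider complement list, chosen with earlier results of these data known, 39 of 40 genes are in the annotation and 31 had an H3K27ac promoter peak in some library. Between HSC and unstimulated BMDM 7 of the 39 passed, 4 higher and 3 lower in HSC, near the share of all genes, and the median difference of the list and of all genes was 0. Higher in HSC were Cd55 (38.1, decay-accelerating factor, mean 70.8 against 32.3), Fcnb (36.6, the ficolin of myeloid cells, with a peak in 12 of 12 HSC and 1 of 11 BMDM libraries), Cd46 (11.6, a cofactor that inactivates C3b) and Itgb2 (11.4, the β chain of complement receptors CR3 and CR4). Lower in HSC were Colec12 (−39.6, a scavenger collectin), Cd93 (−15.5, once described as a C1q receptor) and C2 (−7.94, the classical pathway protease). Their adjusted exact permutation p ran from 0.000105 to 0.0321. With the log2 list length as a covariate in limma 6 of the 39 passed, 2 higher and 4 lower in HSC, and 22.1% of all genes did. Cd46 (limma adjusted p = 0.121) and Itgb2 (limma adjusted p = 0.0754) then did not pass, while Itgax did.

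H3K4me3 showed lower C1qa, C1qc and Cfp promoters in HSC, 3 of the 8, while 9.70% of all genes passed (807 higher and 1320 lower). C1qc had 45.4 through 70.4 to 96.4 in the 11 unstimulated BMDM libraries. In HSC 10 of 12 libraries had no peak and the highest of the others was 31.4, so the groups did not overlap. The share of all genes without overlap was not counted for this mark either. The difference was −61.4 (SE 6.32, adjusted exact permutation p = 0.00328). C1qa was marked in 11 of 11 unstimulated BMDM libraries, at 31.5 to 71.7, and in 4 of 12 HSC libraries, at 28.4 to 34.3 (difference −37.9, SE 5.44, adjusted p = 0.00367). For C1qb the mark was sparse, with 5 of 11 unstimulated BMDM libraries at 24.9 to 34.7 and 0 of 12 HSC libraries, and the difference of −13.5 did not pass (adjusted p = 0.102).

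Cfp was trimethylated in 9 of 11 unstimulated BMDM libraries, at 26.9965 to 39.6, and in 1 of 12 HSC libraries (27.3), a difference of −25.1 (SE 4.69, adjusted exact permutation p = 0.0110). Since H3K4me3 lists of HSC were shorter, limma was also fitted with the log2 list length as a covariate. The C1qc difference was then −49.7 (limma adjusted p = 0.000671), that of C1qa −26.9 (adjusted p = 0.0133), and that of Cfp −18.7 (adjusted p = 0.0944), which no longer passed. The receptors had almost no promoter trimethylation. C3ar1 had a peak in 1 of 35 libraries and C5ar1 in 4 of 35, 0 of them HSC, against H3K27ac peaks in 13 and 30 of 35.

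**Figure D5:**
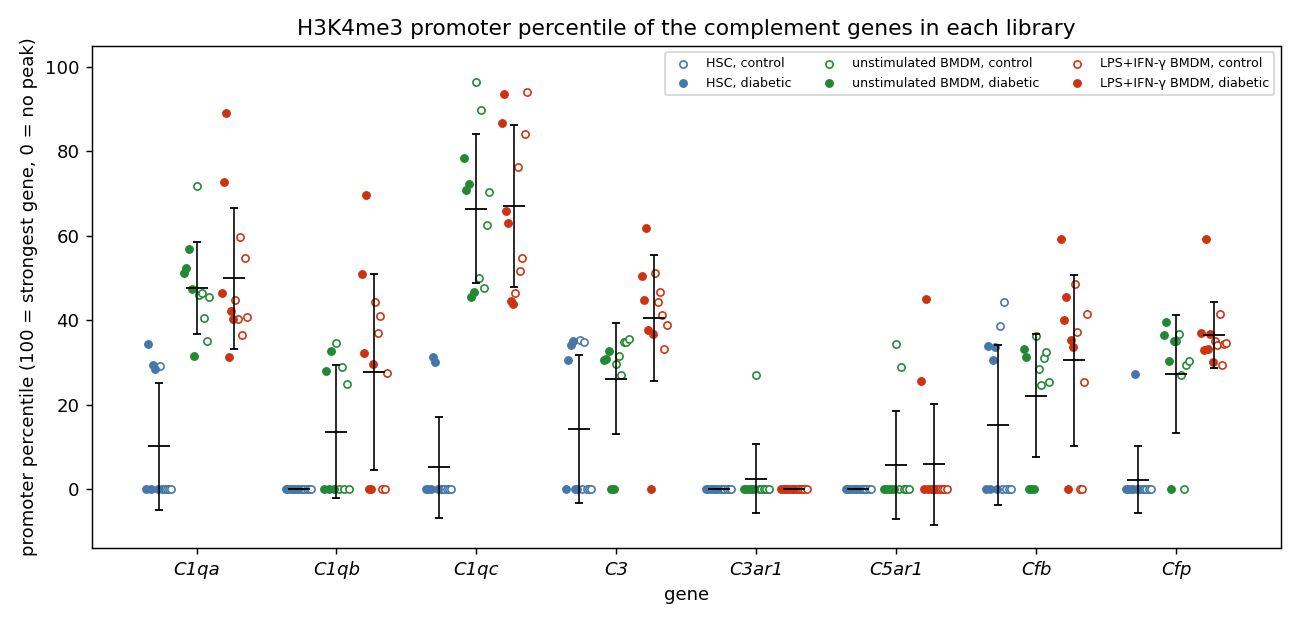
H3K4me3 promoter percentile (vertical axis, 0 for no peak) of each gene in every library, drawn as for H3K27ac, with control mice open, diabetic mice filled, and mean with SD as black bars. C1qc spans 45.4 to 96.4 in unstimulated BMDM and stays at or under 31.4 in HSC.

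In gene windows H3K4me3 was lower in HSC for 6 genes, the C1q chains (−43.4 to −48.6, adjusted exact permutation p = 0.00275), C3ar1 (−26.5, adjusted p = 0.00504), C5ar1 (−22.1, adjusted p = 0.0101) and Cfb (−29.4, adjusted p = 0.0261), where 10.2% of all genes passed and the median difference of all genes was −0.999. With list length as a covariate in limma the 3 C1q chains passed and the other 3 did not. The strongest C3ar1 summit lay inside Foxj2 in 7 of 7 HSC libraries with a peak and 10 of 11 unstimulated BMDM libraries. That of C5ar1 lay inside C5ar2 in 1 of 9 HSC libraries with a peak and 5 of 11 unstimulated BMDM libraries. These window values are thus largely not those of the C3ar1 gene, and only in part those of C5ar1. The Cfb value was that of the Nelfe and Skiv2l promoter in every library with a peak, and without peaks over promoters of other genes Cfb did not pass and Cfp did. Of the wider list 5 of 39 genes passed at H3K4me3 promoters, where 9.70% of all genes did, and all 5 were lower in HSC (Clu, Itgax, C4b, Fcna and Cd59b, −35.3 to −21.4). With list length as a covariate in limma 0 of the 39 passed, and 0.839% of all promoters did.

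The second comparison asked whether inflammatory stimulation moved these marks in macrophages. With all libraries 0 of the 8 genes passed for either mark, in promoters or windows, and 0% of all genes passed, although 2344 H3K27ac and 896 H3K4me3 promoters had an unadjusted exact permutation p under 0.05. The limma fit also called 0 of the 8 genes. The largest values at H3K27ac promoters were −15.5 for C1qc (LPS+IFN-γ minus unstimulated, exact permutation p = 0.00723, adjusted p = 0.243), 14.9 for C5ar1 (adjusted p = 0.599) and 12.97 for Cfb (adjusted p = 0.602). C1qc stood at 62.1, 65.8, 79.0, 58.8, 84.8 and 79.5 in stimulated control libraries 1 to 6 and at 72.8, 59.3, 61.0, 67.0, 53.4 and 49.3 in stimulated diabetic libraries. The mean of 66.1 ± 10.97 (n = 12) thus compares with 81.8 ± 13.1 (n = 11) in unstimulated BMDM, and the ranges overlap.

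The 3 libraries that go against their labels bear on this result. The stimulated control library with the highest C1qc value, 84.8, is number 5, and the unstimulated control libraries with the lowest, 61.4 and 66.4, are numbers 5 and 6. Without them C1qc was lower after stimulation, with a difference of −21.4 (exact permutation p = 0.000326, adjusted p = 0.0264), and so was the shared window of the C1q genes, with a difference of −23.0 (p = 0.000275, adjusted p = 0.0233). Then 2.17% of all promoters passed (192 higher and 284 lower) and 2.99% of windows. C1qa did not pass (−13.5, exact permutation p = 0.00562, adjusted p = 0.116), nor did Cfb, with a value of 19.2 (p = 0.0197, adjusted p = 0.214), or C1qb, with 0.03 (adjusted p = 1). The values of C5ar1 (12.9, adjusted exact permutation p = 0.630), C3 (6.32, adjusted p = 0.317), Cfp (4.91, adjusted p = 0.536) and C3ar1 (−10.3, adjusted p = 0.836) did not pass either. These libraries were singled out by stimulation-linked promoters in earlier results of the same data, so the values without them are a description of the remaining libraries and not independent evidence. In diabetic mice alone, whose libraries chose the promoters of the label check, C1qc differed by −23.4 (exact permutation p = 0.00866, adjusted p = 0.289), C3 by 10.4 (p = 0.00216, the smallest possible, adjusted p = 0.185) and C1qb by 6.38 (p = 0.379). In control mice alone C1qc differed by −8.34 (exact permutation p = 0.290).

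H3K4me3 at C1qc was at 67.1 ± 19.2 (n = 12) in stimulated against 66.4 ± 17.7 (n = 11) in unstimulated BMDM, a difference of 0.84 (SE 7.79, exact permutation p = 0.914). C3 had the largest value in that mark, 40.6 ± 14.9 against 26.1 ± 13.2 (14.8, SE 5.68, exact permutation p = 0.0179, adjusted p = 1), and 11 of 12 stimulated and 9 of 11 unstimulated libraries had a peak. C1qb followed with 14.1 (exact permutation p = 0.115). Whether the stimulation difference of C1qc itself differs between the marks was not tested. Of the wider list 0 of 39 passed for stimulation in either mark, and for H3K27ac 0 passed without the 3 libraries as well.

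The third comparison asked whether diabetes altered these marks within each cell state. H3K27ac lists were shorter in diabetic than in control mice, with medians of 92673.5 against 130591 in HSC. They were 105751 against 132443 in unstimulated and 93501.5 against 129022 in stimulated BMDM. H3K4me3 lists were longer in diabetic HSC (89111 against 49624) and shorter in diabetic BMDM (96580 against 161118 unstimulated, 125224 against 140744 stimulated). List length was not a covariate in the tests of disease within a state. Of the 8 genes 0 passed in any state or mark by exact permutation or by limma, and 0% of all genes passed, with 499 to 825 promoters at an unadjusted p under 0.05. The smallest unadjusted exact permutation p over the 8 genes in H3K27ac promoters was 0.0844 for HSC (C3, 39.2 in diabetic against 29.0 in control mice), 0.139 for BMDM without stimulation (C3, 43.6 against 50.1) and 0.0801 for stimulated BMDM (C1qc, 60.5 against 71.7). In H3K4me3 promoters it was 0.303, 0.0758 and 0.400. All adjusted p were 1, and the smallest p that 6 against 6 or 5 against 6 libraries allow is 0.00216. After adjustment over all genes, a gene at that smallest p passes only if very many other genes reach it too. The absence of calls by exact permutation therefore cannot show that diabetes left these marks unchanged. Interactions of disease with cell type or stimulation were tested with limma, and the lowest p in H3K27ac was that of C3 for cell type (16.7, SE 7.61) and for stimulation (10.8, SE 4.82), with a limma adjusted p = 1 for each. Without the 3 libraries these values of C3 were 15.5 (SE 8.44) and 9.12 (SE 5.52), and 0 of the 8 genes passed for disease in any state or for an interaction. Among all genes 0% passed these interactions, except 0.00456% (1 gene, not among the 8) for cell type in H3K4me3.

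The genes whose H3K27ac promoter levels tracked each complement gene most closely over the 35 libraries, among 16161 genes, are given as a description, and the libraries share their cell states and list lengths. For C1qa they were Ahnak (Spearman rho 0.920), Zfyve28 (0.906) and C1qc (0.895), for C1qb Dpep2 (0.919), Cd40 (0.911) and Gas2l3 (0.907), and for C1qc Tubb6 (0.927), Lpl (0.906) and C1qa (0.895). C3 was tracked by Pld4 (0.899), Il15 (0.879) and Csf1r (0.863), and Cfp by Napb (0.862), Kif1a (0.804) and Pgap1 (0.801). The closest for Cfb were Spic (0.744), Ccl5 (0.738) and Bmp10 (0.7102), for C3ar1 Gsg1 (0.71002), Dpep2nb (0.692) and Prss56 (0.690), and for C5ar1 Mrps31 (0.667), Padi2 (0.664) and H2-M3 (0.655). The C1q chains A and C were thus each among the 3 closest of the other.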

How the data were processed

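Per the labels and the study's methods, chromatin was sequenced as 50-bp single reads. The submitters' processing notes name Trim Galore 0.3.3, cutadapt 1.8, FastQC 0.11.3, Bowtie2 2.2.6, Picard 2.19.2 and 2.18.14, bedtools 2.19.1, MACS2 2.2.7.1 and GRCm38 (mm10). The authors called peaks in each library, and 36 of 106 samples, the inputs, have no list of their own. A deposited list gives for each peak a score, a ratio (fold enrichment at the summit), a −log10 p and a −log10 q. The deposited −log10 p ranked peaks within a list, and the others served as alternatives only. Several summits of an interval were counted as 1 peak (9511856 summits, 7828714 peaks). In all 21 chromosomes 0 peaks ran past the end.

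Promoters reached 1000 bp to either side of 93513 starts of 21938 protein-coding genes (GENCODE M21), and windows 10000 bp beyond the gene. Cell type and stimulation were tested by two-sided exact permutation within disease groups and disease within each state (924 or 462 arrangements), with Benjamini-Hochberg adjustment over all genes at 0.05, and interactions with limma 3.58.1 in R 4.3.3. SE values are from limma. The code was tested on simulated data. The value of 1 cell type marker is not reported here. No 2 lists were alike (highest correlation of promoter values 0.964). Other steps used Python 3.11.15, NumPy 2.4.6, pandas 2.3.3, SciPy 1.17.1, Numba 0.67.0 and matplotlib 3.10.9.

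The 8 genes, the wider complement list, markers, motifs and tests were chosen with earlier results of these data known. Named besides the 8 genes were listed complement genes that passed at H3K27ac promoters (at most 6 in each direction), neighbors with a promoter or leading summit in a window, and the 3 closest genes by Spearman rho with a peak in at least 10 libraries. Genes of the list that passed for H3K4me3, Foxj2 and Gpr108 were named after their values were seen. Alternatives were no-peak genes at mid-rank, the top 20000 peaks, peaks with −log10 q of 3 or more, ranking by fold, a 200-bp overlap, windows without neighbors' promoter peaks, limma with and without log2 list length, a replicate block, each disease group alone, and leaving out libraries. The list length covariate and the left-out libraries were applied to the wider list after its values were seen.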

Additional observations from a re-analysis of the deposited data

Results flagged for a closer look

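Within groups of 5 or 6 libraries, 17 of 79 groups tested had a promoter percentile that stood apart from the rest by Dixon's criterion and 17 further groups had no spread. Chance gives about 1 of 20 groups for values without ties, a rate that does not apply here because many percentiles are exactly 0. In 5 of the 17 all other libraries were at 0, which meets the criterion by construction. For these, HSC library 1 of control mice gave 29.3 for C1qa in H3K4me3 and 40.8 for C1qb in H3K27ac, diabetic HSC library 1 gave 35.8 for C3ar1 in H3K27ac, unstimulated control BMDM library 1 gave 26.98 for C3ar1 in H3K4me3, and diabetic HSC library 5 gave 27.3 for Cfp in H3K4me3.

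In unstimulated control BMDM, library 5, which goes against its label, had no H3K27ac promoter peak and so a percentile of 0 for C1qa (others 58.8 to 78.5) and for Cfp (others 38.1 to 50.1). Library 1 of that group stood high for C1qa in H3K4me3, at 71.7 (others 34.99 to 46.5), and library 4 was at 0 for Cfp in H3K4me3 (others 26.9965 to 36.7) and for Cfb in H3K27ac (others 30.5 to 44.2). Cfb in H3K27ac was also at 0 in stimulated control library 5 (others 34.3 to 54.0), stimulated diabetic library 5 (others 40.01 to 50.6) and diabetic HSC library 6 (others 30.1 to 42.2). C3 in H3K27ac was at 0 in control HSC library 5 (others 30.3 to 37.6). Cfp was at 32.6 in stimulated diabetic library 6 in H3K27ac (others 47.3 to 53.3), at 59.3 in stimulated diabetic library 3 in H3K4me3 (others 30.1 to 37.1) and at 0 in unstimulated diabetic library 5 in H3K4me3 (others 30.4 to 39.6).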

How the results depend on the processing

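For HSC against unstimulated BMDM at H3K27ac promoters, 6 genes passed in the fit reported, against 4755 of all 21938 genes. With the top 20000 peaks 2 passed (C1qa, C1qc), against 3743 of all genes. In control mice alone 1 passed (1106 of all genes) and in diabetic mice alone 3 (1241). When each library was left out 5 to 6 passed. In H3K27ac windows the C1q chains count as 3 genes with 1 value. There 3 genes passed in control mice alone (1205 of all genes), and 5 to 6 over the left-out libraries. For H3K4me3, promoters and windows each gave 0 in control mice alone and 0 in diabetic mice alone, and 0 of all genes passed there. H3K4me3 windows gave 3 in limma with log2 list length. Without the 3 control BMDM libraries that go against their labels, stimulation gave 1 gene at H3K27ac promoters (476 of all genes). In windows it gave the 3 C1q chains, with 1 shared value (656 of all genes). With all libraries both counts were 0. Each disease group alone has fewer libraries and a smallest p of 0.00216.

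Over the single genes at promoters that passed, 74 of 99 other settings kept the call and 25 lost it, as did 14 of 207 with a library left out, all 14 for C3ar1, and none changed sign. Among genes that did not pass, 1 of 253 values passed and 26 changed sign. The smallest adjusted p for stimulation over the left-out libraries was 0.119 at the C1qc promoter and 0.1097 in the C1q window.

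Same-numbered libraries did not deviate together in the cell type comparison, where 1 of 11 pairs in each mark had a correlation over 0.1. In the stimulation comparison 5 of 11 pairs did for H3K27ac (median 0.0998, other pairs −0.0322) and 6 of 11 for H3K4me3 (0.112 and −0.0343). Of the 11 stimulated libraries that had a same-numbered partner, 8 for H3K27ac and 5 for H3K4me3 were closest to it. That is a hint of pairing from the data, and pairs from 1 animal need not all be over 0.1. Whether same-numbered libraries share an animal was thus not settled. The labels state no pairing, so the main test did not take the numbers as pairs, and the replicate block is given beside it. With the replicate block C1qc differed by −15.2 after stimulation in H3K27ac (exact permutation p = 0.0283, adjusted p = 0.447). With the replicate block 4 genes passed in H3K27ac promoters for cell type (3487 of all genes) and 4 in its windows (4350). In H3K4me3 2 passed in promoters (440) and 4 in windows (460). For stimulation, disease or interactions 0 of the 8 genes passed with the block. Reads per library are unknown, which limits what a missing peak can show.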
